A study of Bos taurus and Sus scrofa with 6 samples.

Results

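The cells described here are germ cells of the prepubertal pig testis in which RNA of pan-germ cell genes and of UCHL1 was detected and RNA of TEX101 was not. Cells were read in droplets, where all RNA of a droplet is tagged with its barcode and a unique molecular identifier (UMI) lets copies of a captured molecule be counted once. A pig barcode was kept when its UMI total reached the minimum for a cell in its library (696, 2444 and 3457 UMIs in pigs 1, 2 and 3), when at least 2 different genes of DDX4, DAZL, MAEL, TDRD1, TDRD9, RNF17, MOV10L1 and ELAVL2 had a UMI, when UCHL1 had at least 1 UMI and when TEX101 had 0. The cells were thus chosen by their UMI totals and by the UMIs of these 10 genes. This gate selected 107, 180 and 338 cells in pigs 1, 2 and 3, which are 625 of 9457 called pig cells and of 27966 called cells in all 6 libraries. DAZL has no symbol in the pig gene table, so 7 of the 8 germ genes could be read.

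The study collected testes by castration from 3 mixed breed pigs aged 3 months and from 3 Holstein cattle aged 4.5 months, and prepared 1 library per animal from about 8000 live cells of digested parenchyma. The labels give no treatment and no genetic change, and call the material total testicular cells. Only the pig libraries enter the comparisons. All 3 pigs form a single group of the same age, and the contrasts below are between cells of the same animals.

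Spermatogonia are the mitotic germ cells at the base of the seminiferous tubule. Undifferentiated spermatogonia include the stem cells, which respond to GDNF through GFRA1 and RET, and differentiating spermatogonia respond to retinoic acid, divide and then enter meiosis as spermatocytes. Germ cells at these stages silence transposons with piRNAs, small RNAs loaded onto PIWI proteins in cytoplasmic granules where DDX4, MAEL and tudor domain proteins work. TEX101 is a surface glycoprotein of the LY6 family made by male germ cells as they pass from spermatogonia to spermatocytes and later. UCHL1, a deubiquitinase, marks spermatogonia in pig and cattle testes, and ELAVL2 is an RNA-binding protein of neurons and germ cells.

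The gated cells made up 3.29% (exact 95% binomial interval 2.71% to 3.97%) of the called cells of pig 1, 4.58% (3.95% to 5.28%) of pig 2 and 14.8% (13.4% to 16.4%) of pig 3, a mean of 7.57% ± 6.33 (SD, n = 3). The intervals cover counting error only. The gate itself sets these numbers, and they moved with depth: when every cell was thinned to 2000 UMIs, 5.53% of the 470 cells deep enough in pig 1, 0.992% in pig 2 and 1.45% in pig 3 passed it. The gated cells were deeper than the rest of their libraries, with a median of 4756, 14786.5 and 19315 UMIs per cell in pigs 1, 2 and 3 against 884, 3808 and 5243 in the cells that failed the gate. Of their UMIs, 1.53%, 3.35% and 2.0% were of mitochondrial genes. Together the gated cells hold 540352, 2730997 and 6965255 UMIs, so a value in pig 1 rests on far fewer molecules than one in pig 3.

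The genes used by the gate are given as a description, since their values chose the cells. All levels below are UMIs per 1000000 UMIs of the summed cells of a pig (CPM), in the order of pigs 1, 2 and 3. UCHL1 stood at 751, 680 and 559 CPM in pigs 1, 2 and 3, and ELAVL2 at 328, 499.8 and 346 CPM. DDX4, the RNA helicase of germ granules, stood at 55.5, 94.5 and 59.0 CPM, and MAEL, a piRNA pathway factor, at 72.2, 85.0 and 40.6 CPM. TDRD1, a tudor domain scaffold, varied most in proportion, with 99.9, 37.3 and 17.7 CPM. MOV10L1 was low, at 16.7, 3.66 and 5.31 CPM, and TDRD9, a helicase, was the lowest, at 3.70, 1.83 and 2.15 CPM. In pig 1, 81 of 107 cells had a UMI for exactly 2 germ genes, and in pigs 2 and 3, 59 of 180 and 123 of 338 cells had that number, and 23, 13 and 52 cells had a single UCHL1 UMI.

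Cells just inside and just outside the gate are given side by side for genes that the gate did not read, with no test. COX8C, the testis-type isoform of a cytochrome c oxidase subunit, stood at 896, 994 and 1523 CPM in cells that passed with 2 germ genes and 1 UCHL1 UMI. It stood at 1231, 1122 and 1435 CPM in cells with UCHL1 but only 1 germ gene, and at 953, 704 and 1344 CPM in cells with 2 or more germ genes but no UCHL1 UMI. In the 2525, 3284 and 1253 cells with no UMI of any gate gene, here called gate-negative cells, it stood at 101, 11.9 and 40.3 CPM. DMRT1, a transcription factor of spermatogonia and Sertoli cells, stood at 368, 359.5 and 726 CPM just inside the gate, at 246, 329.6 and 473 CPM with only 1 germ gene, and at 38.97, 66.3 and 22.1 CPM in gate-negative cells. The 3130, 3733 and 1870 cells that failed the gate on more than TEX101 (the other cells) had 522, 74.1 and 459 CPM of COX8C. Below, the gated cells are compared with the other cells and, in a contrast chosen after the data were seen, with the gate-negative cells. Gate-negative cells are also shallower, with median totals of 848, 3794.5 and 4855 UMIs, and a shallow cell more readily has no UMI of a gate gene.

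**Figure D1:**
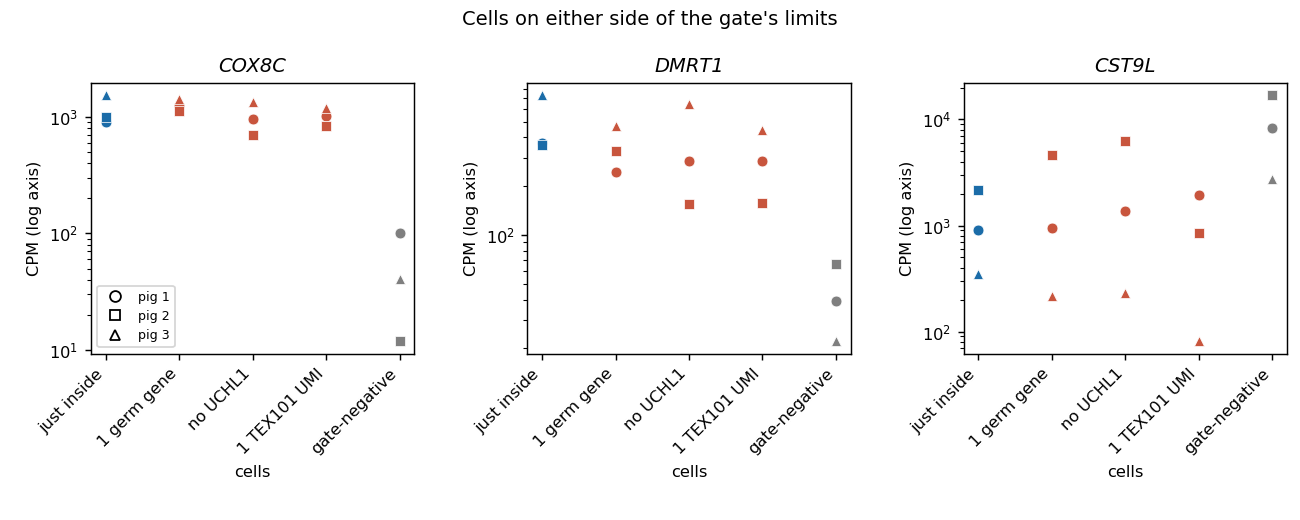
CPM (log axis) of COX8C, DMRT1 and the Sertoli cell gene CST9L in 5 sets of pig cells, with 1 point per pig (circle, pig 1; square, pig 2; triangle, pig 3): cells just inside the gate, cells that fail it by 1 condition (1 germ gene, no UCHL1 or 1 TEX101 UMI) and gate-negative cells. COX8C lies between 704 and 1435 CPM in the cells that fail by 1 condition and at 101 CPM or less in gate-negative cells.

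Spermatogonial genes outside the gate were compared with edgeR's quasi-likelihood test on the sums of the 3 pigs. Results are given with Benjamini-Hochberg adjusted p-values and log2 fold changes ± SE. The reference cells are not a set of another germ cell stage, so a rise does not set spermatogonia apart from other germ cells. Of the 25 genes listed for stem and undifferentiated spermatogonia, 24 have a symbol and 22 passed the count filter against gate-negative cells. Of these 22, 11 rose and 2 fell (BCL6B and TCN2), where 13.7% of all genes tested were higher and 18.0% lower, but 2 rose without pig 2 and 6 without pig 3. PAX7 and NANOS3, among the 11, had 14 and 15 UMIs here and 0 in gate-negative cells, so they could only come out higher. They passed the count filter through the gated cells alone. Against the other cells, where 3.31% of genes were higher and 9.2% lower, 4 of 22 rose (LHX1, PAX7, SALL4 and UTF1) and 0 fell, and 0 rose without pig 2 or without pig 3. With the pig as a replicate block 12 rose and 2 fell. FGFR3, a receptor of undifferentiated spermatogonia, stood at 5.55, 19.4 and 15.4 CPM in the gated cells and 2.51, 0.552 and 0.549 CPM in gate-negative cells (log2 fold change 3.54 ± 0.78, adjusted p = 0.01). UTF1, a chromatin factor of undifferentiated spermatogonia, stood at 31.5, 29.7 and 34.6 CPM against 2.51, 0.483 and 0 CPM (log2 fold change 5.27 ± 0.93, adjusted p = 0.0044). SALL4, a zinc finger factor of undifferentiated germ cells, stood at 11.104, 16.8 and 12.9 CPM against 0, 0.0690 and 0 CPM, the last from 1 UMI in all, so SALL4 too passed the count filter through the gated cells. For FGFR3 and UTF1 every pig was higher in the gated cells and the groups did not overlap. These genes are picked from those that rose, and the share of all genes with separate groups is not given here.

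Not every spermatogonial marker was detected. NANOS2, which keeps stem cells undifferentiated, LIN28A and SOX3 had 0 UMIs in the gated cells of all 3 pigs, which allows up to 5.55, 1.10 and 0.431 CPM (3 counts) in pigs 1, 2 and 3. They had 0 UMIs in every other set of pig cells too, so their 0 does not set the gated cells apart. GFRA1 stood at 14.8, 12.8 and 6.75 CPM against 1.68, 1.04 and 5.08 CPM and did not pass the test against gate-negative cells (log2 fold change 1.73 ± 0.71, adjusted p = 0.088, adjusted p = 0.034 with the pig as a replicate block). ZBTB16, a zinc finger factor of undifferentiated spermatogonia, stood at 38.9, 65.2 and 65.3 CPM against 15.5, 48.9 and 17.6 CPM (log2 fold change 0.78 ± 0.46, adjusted p = 0.22, adjusted p = 0.044 with the pig as a replicate block). KIT, the receptor of differentiating spermatogonia, stood at 13.0, 49.8 and 30.7 CPM against 6.29, 49.8 and 43.8 CPM (log2 fold change -0.35 ± 0.65, adjusted p = 0.71), and the groups overlapped. STRA8, induced by retinoic acid before meiosis, stood at 3.70, 5.13 and 4.59 CPM against 0.838, 0.207 and 0.960 CPM (log2 fold change 2.58 ± 0.78, adjusted p = 0.033). Meiotic genes rose against gate-negative cells too, with 8 of 14 axis and synaptonemal complex genes and 7 of 14 recombination genes higher. The gated cells are called spermatogonia-like below as a name, and these contrasts did not test their stage.

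RNA of other cell types was present in the spermatogonia-like cells and was measured with 7 marker lists. The 16 Sertoli genes read summed to 2236, 2052 and 867 CPM in the spermatogonia-like cells, which is 18.5%, 9.88% and 23.1% of their level in gate-negative cells, with SHBG at 0 and CST9L the most abundant at 827, 1235 and 151 CPM. The 9 Leydig genes summed to 1162, 271 and 352 CPM, or 6.97%, 13.5% and 11.5% of the gate-negative level, and INSL3, the insulin-like hormone of Leydig cells, led them at 664, 72.1 and 133 CPM. The 13 myoid and stromal genes, led by DCN, summed to 107, 378 and 365 CPM, and the 13 macrophage genes, led by CD14, to 154, 34.1 and 179 CPM. The 9 endothelial genes, led by VWF, summed to 48.1, 63.7 and 47.2 CPM, above the 36.0, 547 and 1029 CPM of gate-negative cells in pig 1 and far below them in pigs 2 and 3. The 14 lymphocyte genes, led by CCL5 and with IL7R and CD79A at 0, summed to 18.5, 25.3 and 31.2 CPM. The 5 erythroid genes summed to 18.5, 10.985 and 248 CPM, nearly all of it HBB in pig 3 (7.40, 3.30 and 235 CPM). A UMI for at least 3 Sertoli genes was found in 72, 168 and 219 of the spermatogonia-like cells. Doublets were taken as the cells of highest Scrublet score, at an assumed 0.8% per 1000 cells, or 84, 124 and 41 called cells. They included 2, 2 and 10 spermatogonia-like cells. Scrublet's own limit marked 164, 8 and 13 called cells. Without the cells with 3 Sertoli genes, 35, 12 and 119 were left, and the counts against the other cells given below went from 502 higher and 1393 lower genes to 23 and 714. The part of this RNA in the results was otherwise not tested.

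**Figure D2:**
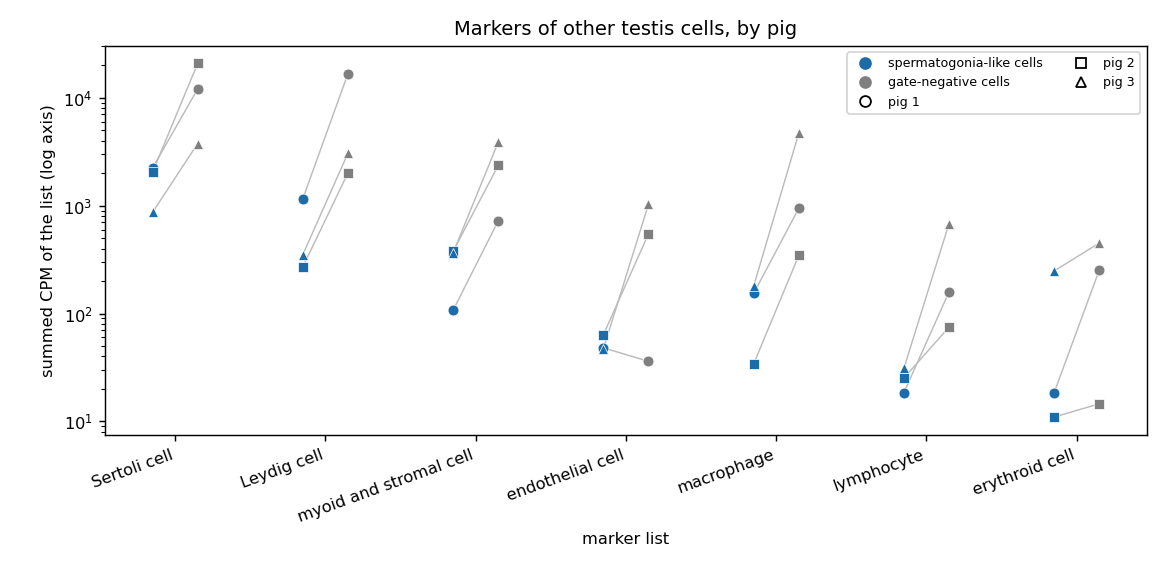
Summed CPM (log axis) of 7 lists of markers of other testis cells in spermatogonia-like cells (blue) and gate-negative cells (grey), with lines joining the values of a pig. The spermatogonia-like cells are lower for every list and pig but the endothelial genes of pig 1 (48.1 against 36.0 CPM).

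Across all genes but those of the gate, an adjusted p of at most 0.05 was called. Against the other cells, 502 genes (3.31% of 15144 tested) were higher in spermatogonia-like cells and 1393 (9.20%) were lower. With the pig as a replicate block, which pairs the 2 sums of a library, 2031 were higher and 3116 lower. After thinning to 2000 UMIs, with shallower cells left out, edgeR called 0 genes in either direction, with 1829 at an unadjusted p under 0.05. In pig 1 this kept 359 of the 3130 other cells. A COX8C UMI was found in 86.1% of these thinned cells and in 82% of the thinned spermatogonia-like cells of pig 1. The 0 calls thus come with a changed comparison set as well as less depth. The calls rested on all pigs: without pig 1 there were 193 higher and 782 lower, without pig 2 there were 0 and 134, and without pig 3 there were 0 and 278. Against gate-negative cells, 2007 of 14656 genes (13.7%) were higher and 2641 (18.0%) lower, with 521 and 1084 called without pig 2 and 830 and 1233 without pig 3. Both contrasts use the same spermatogonia-like sums, and the gate-negative cells are part of the other cells. Scaling by library sizes alone moved the median log2 fold change of all genes from -0.12 to 0.16 against gate-negative cells, and the share of calls that are higher from 43.2% to 58.3%. For the other cells the moves were from -0.08 to 0.08 and from 26.5% to 41.8%. The shares of all genes called, 3.31% and 9.2% for the other cells and 13.7% and 18.0% for gate-negative cells, are the background of each list count in the 2 contrasts. In sums over cells, more cells with a transcript and more transcript per cell cannot be told apart.

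By size of change, the genes that rose most against the other cells, with at least 50 CPM, were MSMP, ISL1, BARX2, GALNT6, SERTAD4, JPH1, GFRA2, PEG10, CTXN1, ABCC4, CPEB1 and KIF5C. GFRA2, the receptor of neurturin and a close relative of GFRA1, stood at 124, 113 and 105 CPM against 36.2, 5.77 and 17.0 CPM in the other cells and 5.87, 1.73 and 7.27 CPM in gate-negative cells (log2 fold change 2.42 ± 0.55, adjusted p = 0.028 against the other cells). ISL1, a LIM homeobox factor, stood at 61.1, 72.9 and 51.1 CPM against 4.19, 0.690 and 0 CPM in gate-negative cells (log2 fold change 5.49 ± 0.95, adjusted p = 0.0041). BARX2, another homeobox factor, stood at 42.6, 56.4 and 56.6 CPM against 1.26, 0.138 and 0.412 CPM (log2 fold change 6.71 ± 0.65, adjusted p = 0.00078). Its UMIs in gate-negative cells fell short of the count filter of 10, so BARX2 passed the filter through the spermatogonia-like cells. In GFRA2, ISL1 and BARX2 the lowest spermatogonia-like sum lay above the highest gate-negative sum. Their choice by size and by 1 direction in 3 pigs favours this, and the share of all genes with separate sums is not given here. Without pig 2 and without pig 3 no gene was called higher against the other cells. PEG10, an imprinted gene derived from a retrotransposon, stood at 133, 208 and 175 CPM against 10.9, 8.35 and 7.41 CPM (log2 fold change 4.0 ± 0.33, adjusted p = 0.00078). CPEB1, which binds polyadenylation elements in germ cell messages, stood at 83.3, 120.1 and 86.4 CPM against 4.19, 2.49 and 2.33 CPM (log2 fold change 4.79 ± 0.37, adjusted p = 0.00078).

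The piRNA pathway was the list with the most members higher against gate-negative cells. Of its 17 genes tested outside the gate, 16 rose and 0 fell, with a median log2 fold change of 4.07 beside -0.12 for all genes. Against the other cells 2 of 17 rose, and 9 with the pig as a replicate block. Without pig 2, 5 of 17 rose against gate-negative cells, and without pig 3, 9 of 16. GTSF1, a PIWI partner needed for transposon silencing, stood at 204, 379 and 270.3 CPM against 16.8, 7.18 and 10.6 CPM (log2 fold change 4.36 ± 0.42, adjusted p = 0.00078). PLD6, the mitochondrial protein that takes part in piRNA processing, was the most abundant, with 357, 363 and 501 CPM against 22.2, 3.52 and 16.7 CPM (log2 fold change 4.6 ± 0.64, adjusted p = 0.0021). TEX15 stood at 18.5, 80.9 and 21.7 CPM, highest in pig 2, and PIWIL4, the nuclear PIWI protein, was also highest there, with 7.40, 40.3 and 6.17 CPM. The 1 tested gene that did not pass was EXD1 (log2 fold change 1.36 ± 0.57, adjusted p = 0.093, adjusted p = 0.04 with the pig as a replicate block).

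Germ cell RNA-binding genes outside the gate rose in 6 of 12 tested, with 3 rising without pig 2 and 3 of 10 without pig 3. RBM46, which binds messages at the entry to meiosis, stood at 98.1, 149 and 126 CPM against 5.45, 1.59 and 4.53 CPM (log2 fold change 4.81 ± 0.50, adjusted p = 0.00098). Of 18 testis-type energy enzymes and their common isoforms 6 rose and 3 fell against gate-negative cells (3 and 2 without pig 2), where 13.7% of all genes were higher and 18.0% lower, with a median log2 fold change of -0.06. Against the other cells 2 rose and 2 fell, and 0 of either without pig 2 or without pig 3. COX8C stood at 1121, 1108 and 1280.1 CPM against 101, 11.9 and 40.3 CPM (log2 fold change 4.24 ± 0.69, adjusted p = 0.0034), and COX7B2 and LDHC were also higher, at log2 fold changes of 4.57 and 3.22. PGK1, the common glycolytic kinase, was lower (log2 fold change -2.38 ± 0.34, adjusted p = 0.0022).

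The retinoid list held genes of both directions. CRABP1, which binds retinoic acid in the cytoplasm, stood at 1830.3, 870.4 and 1191 CPM against 159, 189 and 42.5 CPM in gate-negative cells (log2 fold change 3.04 ± 0.54, adjusted p = 0.0045), and against 590.3, 219 and 257 CPM in all others (log2 fold change 1.75 ± 0.45, adjusted p = 0.037). The receptor RXRG stood at 24.1, 38.8 and 25.6 CPM against 2.51, 0.276 and 0.823 CPM (log2 fold change 4.70 ± 0.73, adjusted p = 0.0029). ALDH1A3, which makes retinoic acid, was lower (log2 fold change -3.33 ± 0.55, adjusted p = 0.0035), as was CYP26B1, which degrades it (log2 fold change -2.90 ± 0.63, adjusted p = 0.0096). In all, 4 of 18 genes of the list rose and 7 fell against gate-negative cells, beside 13.7% and 18.0% of all genes, with 2 and 3 without pig 1 and 2 and 1 both without pig 2 and without pig 3.

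Part of the genes of DNA replication and division were higher in the spermatogonia-like cells. Of 18 S phase genes 11 rose against gate-negative cells (4 without pig 2, 6 without pig 3) and 6 against the other cells (10 with the replicate block, 1, 0 and 0 without pigs 1, 2 and 3), and 0 fell, where 13.7% and 3.31% of all genes were higher. UNG, a DNA repair glycosylase of replicating cells, stood at 61.1, 60.4 and 60.7 CPM against 12.6, 12.2 and 11.8 CPM (log2 fold change 2.03 ± 0.29, adjusted p = 0.0022). MCM5, a subunit of the replicative helicase, stood at 75.9, 67.0 and 82.6 CPM against 16.8, 14.2 and 18.9 CPM (log2 fold change 1.89 ± 0.31, adjusted p = 0.0034). Of 18 G2 and M phase genes 8 rose against gate-negative cells (14 with the replicate block, 1 without pig 1, 0 without pig 2), and 0 rose against the other cells (10 with the block). MKI67, the proliferation antigen, stood at 16.7, 10.3 and 34.2 CPM against 10.9, 4.83 and 25.8 CPM (log2 fold change 0.34 ± 0.68, adjusted p = 0.74). An MKI67 UMI was found in 8.41%, 10.6% and 30.2% of spermatogonia-like cells. After thinning to 2000 UMIs, which left out 7 of these cells in pig 1, the shares were 3%, 1.67% and 6.21%. In cells outside the gate with at least 3 Sertoli genes they were 4.02%, 0.596% and 3.67%. For pig 1 this covers only the 199 of 1575 such cells deep enough to thin. A COX8C UMI was found in 83.4%, 5.84% and 26.9% of these thinned cells, so no clean background can be read in pigs 1 and 3. Among all 1575 cells of pig 1, before thinning, the COX8C share was 17.2%. Of 17 genes of DNA methylation and demethylation 4 rose (DNMT1, HELLS, SETDB1 and UHRF1) and 4 fell (MBD2, TET1, TET2 and ZBTB38) against gate-negative cells, beside 13.7% and 18.0% of all genes. Their median log2 fold change was -0.32, and 1 rose and 4 fell without pig 2 and 2 and 3 without pig 3. HELLS, a chromatin remodeller that works with DNA methylation, stood at 189, 211 and 197 CPM against 43.6, 22.6 and 28.3 CPM (log2 fold change 2.37 ± 0.32, adjusted p = 0.0019), while TET2, a demethylase, was lower (log2 fold change -3.86 ± 0.67, adjusted p = 0.0041).

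Genes of immune and somatic lists were lower in spermatogonia-like cells. By size of change the lowest against the other cells were CLEC3B, MZB1, CAV1, JCHAIN, CD93, CFD, MRAP and TM4SF1. CFD, complement factor D, stood at 1.85, 6.22 and 6.89 CPM against 139, 82.2 and 220.4 CPM (log2 fold change -4.82 ± 0.49, adjusted p = 0.0035). In the antigen presentation list 11 of 13 genes fell and 0 rose against gate-negative cells, and 10 of 13 fell whichever pig was left out. In the contrast with all other cells 10 of 14 fell, and 5, 4 and 5 without pigs 1, 2 and 3. B2M, the light chain of class I molecules, stood at 199.9, 254 and 611 CPM against 2028, 1997 and 9164 CPM in gate-negative cells (log2 fold change -3.89 ± 0.74, adjusted p = 0.0058). CD74, the class II invariant chain, stood at 77.7, 39.5 and 103 CPM against 1317, 822 and 4506 CPM there (log2 fold change -5.19 ± 0.74, adjusted p = 0.0023). Immediate early genes, which tissue dissociation can switch on, fell in 11 of 18 and rose in 0, and 11, 10 and 11 fell without pigs 1, 2 and 3 in turn. In the contrast with all other cells 11 of 19 fell, and 11, 3 and 2 without pigs 1, 2 and 3. FOS stood at 81.4, 279.8 and 117 CPM against 918, 3357 and 2181 CPM in gate-negative cells (log2 fold change -4.06 ± 0.57, adjusted p = 0.0022) and EGR1 at 37.0, 105 and 31.3 CPM against 828, 1140 and 659 CPM there (log2 fold change -4.24 ± 0.47, adjusted p = 0.0011). Sertoli, Leydig, myoid, endothelial, macrophage and lymphocyte lists fell in 11 of 14, 8 of 9, 11 of 12, 6 of 9, 11 of 13 and 7 of 15 genes or gene IDs against gate-negative cells, and 1 of the 2 gene IDs named GZMA rose. Leaving out a pig cut these counts to 6 for Sertoli and 4 for myoid genes (without pig 2), to 5 for Leydig genes (without pig 3), to 1 and 0 for endothelial genes (without pigs 2 and 3), to 3 for macrophage genes (without pig 1), and to 3 and 2 for lymphocyte genes (without pigs 1 and 3). Relative to the other cells 8, 5, 7, 3, 5 and 3 genes of these lists fell, and at their lowest with a pig left out 1, 2, 0, 0, 0 and 0. With the pig as a replicate block 11, 8, 11, 9, 11 and 11 fell relative to the other cells, and 1 rose in each of the Sertoli and lymphocyte lists.

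Cells that passed the same gate but had a TEX101 UMI numbered 11, 19 and 69 in pigs 1, 2 and 3, with 46473, 324866 and 1418213 UMIs in all. Against these, edgeR called 0 of 13260 genes in either direction (0.0%), with 352 at an unadjusted p under 0.05, and DESeq2 also called 0. With the pig as a replicate block, 23 genes were higher in spermatogonia-like cells and 48 lower. Of 19 stem and undifferentiated genes tested, 0 were called, with or without the block, and the median log2 fold change was 0.08. The list summed to 323, 539 and 330 CPM in the TEX101-positive cells, above the 228, 378 and 299 CPM of spermatogonia-like cells. UTF1 led it there, at a mean of 78 CPM. PRSS21, a membrane serine protease of germ cells, stood at 7.40, 5.49 and 9.48 CPM in spermatogonia-like cells against 64.6, 30.8 and 38.8 CPM (log2 fold change -2.14 ± 0.49, adjusted p = 1, adjusted p = 1e-05 with the pig as a replicate block). LYPD4 and LY6K belong to the LY6 family, as does TEX101, and differed by log2 fold changes of -1.98 (adjusted p = 1.9e-05 with the pig as a replicate block) and -1.42 (adjusted p = 8.8e-05 with the pig as a replicate block). On the other side CRABP1 stood at 1334, 234 and 1206 CPM in the TEX101-positive cells and differed by log2 fold change 0.77 ± 0.42, adjusted p = 1 (adjusted p = 0.0012 with the pig as a replicate block). Depth limits this contrast, since 3 counts in the TEX101-positive sum of pig 1, as PRSS21 has there, are worth 64.6 CPM.

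A single TEX101 UMI separates few cells, so a further contrast, chosen after the data were seen, took all called cells with at least 3 TEX101 UMIs, whether or not they passed the gate (TEX101-high cells). There were 37, 5 and 85 of them in pigs 1, 2 and 3, with 88153, 82035 and 802690 UMIs, and UCHL1 had a UMI in 0, 2 and 6. Their median totals were 2318, 14563 and 8155 UMIs, and their Sertoli genes summed to 4299, 4401 and 1661 CPM, above the sums of the spermatogonia-like cells. Of 13137 genes, 587 (4.47%) were higher in spermatogonia-like cells and 483 (3.68%) lower, the background of each list count in this contrast. With the pig as a replicate block 1064 were higher and 726 lower. Without pig 1 the counts were 271 and 355, without pig 2 they were 630 and 551, and without pig 3 they fell to 14 and 52. Scaling by library sizes alone moved the median log2 fold change from 0.24 to 0.04, with 322 higher and 617 lower, so the share of calls that are higher went from 54.9% to 34.3%.

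**Figure D3:**
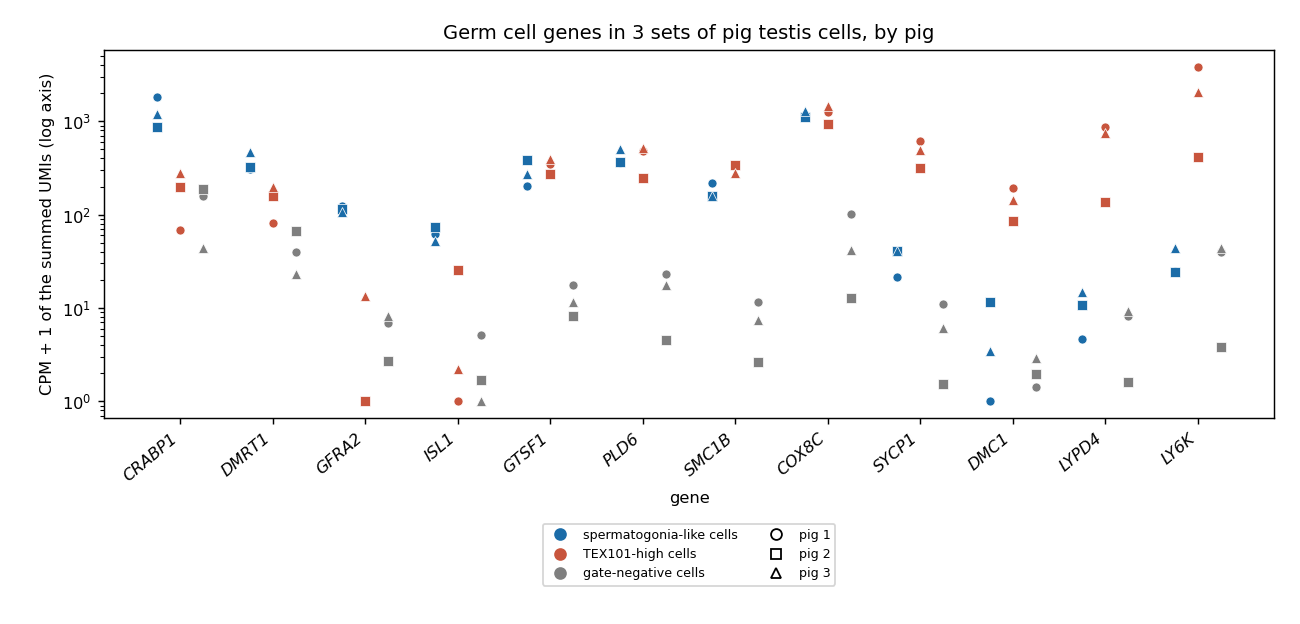
CPM + 1 (log axis) of 12 genes in the summed cells of each pig, in spermatogonia-like cells (blue), TEX101-high cells (red) and gate-negative cells (grey). In every pig CRABP1, DMRT1, GFRA2 and ISL1 are highest in spermatogonia-like cells and SYCP1, DMC1, LYPD4 and LY6K in TEX101-high cells, while COX8C stands between 939 and 1463 CPM in both germ cell sets.

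The 10 genes lowest by size of change in spermatogonia-like cells include 2 of the LY6 family. LY6K stood at 24.1, 23.1 and 42.6 CPM against 3846, 414 and 2074 CPM in TEX101-high cells (log2 fold change -5.77 ± 0.48, adjusted p = 2.3e-13). LYPD4 stood at 3.70, 9.89 and 13.8 CPM against 873, 134 and 745 CPM (log2 fold change -5.54 ± 0.47, adjusted p = 2.3e-13). For both genes the 2 sets of sums did not overlap. DMC1, the meiotic recombinase, stood at 0, 10.6 and 2.44 CPM against 193, 85.3 and 143 CPM (log2 fold change -4.56 ± 0.50, adjusted p = 5.7e-10), and MEIOB, which binds single-stranded DNA in meiosis, differed by log2 fold change -4.89 ± 0.60, adjusted p = 2e-08. PRSS21, ANKRD35, PIH1D3, DKKL1 and ZBTB32 are also among the 10 lowest genes by size of change, at log2 fold changes of -4.83, -5.32, -5.25, -4.33 and -4.19.

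Of 14 genes of the meiotic chromosome axis and synaptonemal complex, 10 were lower in spermatogonia-like cells than in TEX101-high cells and 0 higher, with a median log2 fold change of -2.21 beside 0.24 for all genes. Without pigs 1, 2 and 3 in turn 9, 9 and 5 were lower. SYCP1, which spans the complex, stood at 20.4, 39.5 and 40.2 CPM against 613, 317 and 487 CPM (log2 fold change -3.48 ± 0.37, adjusted p = 2.8e-10). SYCE3, a central element protein, stood at 61.1, 71.4 and 85.7 CPM against 749, 195 and 452 CPM (log2 fold change -2.36 ± 0.37, adjusted p = 4.9e-06), and HORMAD1, an axis protein, at 5.55, 27.1 and 20.4 CPM against 170.2, 134 and 275 CPM (log2 fold change -3.17 ± 0.40, adjusted p = 3.5e-08). Against gate-negative cells 8 of 14 of these genes were higher in spermatogonia-like cells (3 without pig 2, 4 without pig 3), and against the other cells 0 of 16 (3 with the replicate block). Their summed level in spermatogonia-like cells was 165%, 1020% and 128% of that in the other cells. SMC1B, the meiotic cohesin subunit, stood at 215, 159 and 157 CPM in spermatogonia-like cells, 340.3, 341 and 275 CPM in TEX101-high cells and 10.5, 1.66 and 6.45 CPM in gate-negative cells, and its difference from TEX101-high cells did not pass (log2 fold change -0.53 ± 0.34, adjusted p = 0.36). A SYCP1 UMI was found in 9.35%, 37.2% and 49.1% of spermatogonia-like cells. After thinning the shares were 6%, 8.89% and 9.76%. In cells outside the gate with at least 3 Sertoli genes they were 11.06%, 0.596% and 6.58%, for pig 1 from only 199 of 1575 such cells. In pigs 1 and 3 these thinned cells hold germ cell RNA and set no clean background (COX8C in 83.4%, 5.84% and 26.9% of them). Among all 1575 cells of pig 1, before thinning, the COX8C share was 17.2%.

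Of 14 recombination genes tested, 6 were lower in spermatogonia-like than in TEX101-high cells (C14orf39, DMC1, MEIOB, SPATA22, SPO11 and ZCWPW1) and 0 higher, with 3 of 12 lower without pig 3. REC114, needed for meiotic break formation, stood at 118, 119.7 and 131 CPM against 102, 60.9 and 89.7 CPM in TEX101-high cells (log2 fold change 0.76 ± 0.37, adjusted p = 0.21) and 9.22, 1.66 and 2.47 CPM in gate-negative cells (log2 fold change 4.70 ± 0.62, adjusted p = 0.0017). MND1, which assists strand exchange, stood at 81.4, 94.1 and 91.0 CPM against 11.3, 85.3 and 48.6 CPM (log2 fold change 1.12 ± 0.42, adjusted p = 0.088, adjusted p = 0.016 with the pig as a replicate block).

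In the piRNA list 2 of 17 genes were lower in spermatogonia-like cells, TDRKH (log2 fold change -2.63 ± 0.42, adjusted p = 9.6e-06) and FKBP6 (log2 fold change -2.04 ± 0.41, adjusted p = 0.00039), and 0 higher, with a median log2 fold change of -0.73. Without pig 3 neither passed, and 3 genes of the list passed without pig 2. GTSF1 stood at 352, 268 and 397 CPM in TEX101-high cells (log2 fold change -0.02 ± 0.33, adjusted p = 0.98) and PLD6 at 476, 244 and 513 CPM (log2 fold change 0.23 ± 0.34, adjusted p = 0.74), and neither passed the test. Of 18 energy enzymes 4 were higher than in TEX101-high cells (COX4I2, GAPDH, LDHB and SLC25A5) and 2 lower, and 0 of 15 were called without pig 3. COX4I2 had 0 UMIs in TEX101-high cells and could only come out higher. The testis-type isoforms COX6B2 (log2 fold change -1.92 ± 0.39, adjusted p = 0.00049) and LDHC (log2 fold change -1.78 ± 0.41, adjusted p = 0.0025) were lower, and LDHB, a common isoform, was higher (log2 fold change 2.20 ± 0.41, adjusted p = 0.00012).

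**Figure D4:**
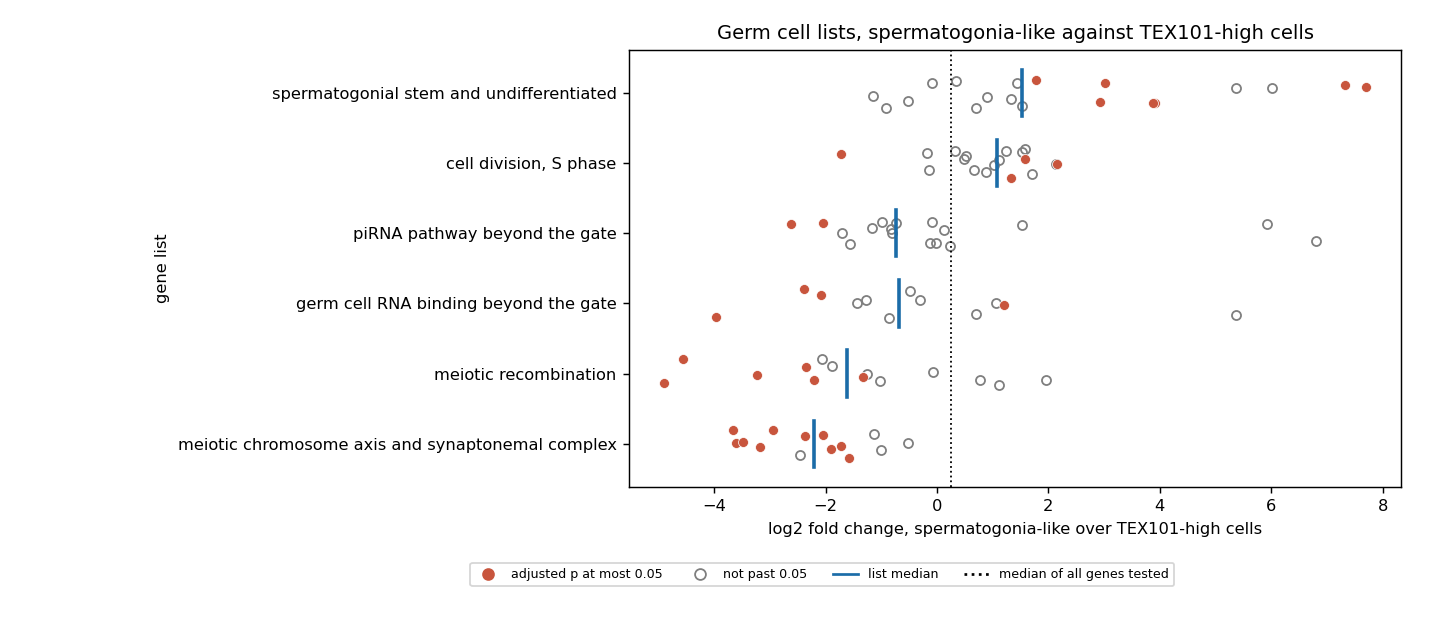
Log2 fold change of spermatogonia-like over TEX101-high cells for each tested gene of 6 lists, with called genes filled, the list median as a blue bar and the median of all genes (0.24) dotted. In the axis and synaptonemal complex list 10 of 14 genes are called, all lower, and in the stem and undifferentiated list 7 of 19, all higher. Fitted values above 5 belong to genes with no UMI in TEX101-high cells, which could only come out higher.

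Part of the spermatogonial genes were higher in spermatogonia-like than in TEX101-high cells. No stem and undifferentiated gene was called against the TEX101-positive cells that passed the gate, where the list summed higher. Of 19 such genes tested against TEX101-high cells, 7 were higher (ETV5, FGFR3, GFRA1, LHX1, SALL4, UTF1 and ZBTB16) and 0 lower. Without pig 1, 4 were higher, and without pig 3, 0. SALL4 and GFRA1 had 0 UMIs in the TEX101-high cells, so they passed the count filter through the spermatogonia-like cells alone and could only come out higher. Against 3 counts over the TEX101-high cells, SALL4 was at least 4.50-fold and GFRA1 at least 2.85-fold higher. With the 4 tested genes at 0 UMIs there set to their bounds, the list's median log2 fold change was 1.33 in place of 1.53. ZBTB16 stood at 38.9, 65.2 and 65.3 CPM against 0, 12.2 and 8.72 CPM (log2 fold change 3.01 ± 0.59, adjusted p = 0.00026). Its UMIs in TEX101-high cells fell short of the count filter of 10, so ZBTB16 too passed the filter through the spermatogonia-like cells. DMRT1 stood at 305, 323 and 463 CPM against 79.4, 158 and 198 CPM (log2 fold change 1.48 ± 0.36, adjusted p = 0.0046). CRABP1 stood at 1830.3, 870.4 and 1191 CPM against 68.1, 195 and 278 CPM (log2 fold change 2.99 ± 0.40, adjusted p = 1.3e-07). In both, which are picked from the called genes, the lowest spermatogonia-like sum was above the highest TEX101-high sum. Of 8 differentiating spermatogonia genes 3 were higher and 2 lower than in TEX101-high cells, beside 4.47% and 3.68% of all genes (1 and 2 without pig 1, 1 and 1 without pig 3). In the same list 2 were higher and 1 lower than in gate-negative cells, beside 13.7% and 18.0% (1 and 0 without pig 1 or without pig 2, 1 and 1 without pig 3). The cyclins CCND1 (log2 fold change 2.41 ± 0.46, adjusted p = 0.00022) and CCND2 (log2 fold change 2.0 ± 0.54, adjusted p = 0.011), which drive the G1 phase, were higher than in TEX101-high cells, and CCND2 was lower than in gate-negative cells (log2 fold change -1.89 ± 0.57, adjusted p = 0.033), while STRA8 (log2 fold change -2.89 ± 0.58, adjusted p = 0.00038) and MEIOC, a regulator of meiotic entry (log2 fold change -3.96 ± 0.65, adjusted p = 1.4e-05), were lower than in TEX101-high cells. By the rule of size the 10 highest genes were MSMP, BARX2, BNC2, ISL1, GPC4, SKP2, GFRA2, ASB9, GALNT6 and NRN1. GFRA2 stood at 124, 113 and 105 CPM against 0, 0 and 12.5 CPM (log2 fold change 3.75 ± 0.54, adjusted p = 8.2e-07).

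TEX101 and LYPD4 lie on pig chromosome 6 of Sscrofa11.1, at chr6:50271730-50274745 and chr6:50010272-50023571, both on the plus strand, and LY6K lies at chr4:1391736-1436059, by the RefSeq annotation. The 250 bases before the annotated start of TEX101 (chr6:50271480-50271729), of LYPD4 (chr6:50010022-50010271) and of SYCP1 (chr4:105730414-105730663, minus strand) are shown 5′ to 3′ as the start regions of the gene whose UMIs defined the 2 germ cell sets and of 2 genes that were lower in spermatogonia-like cells. Capitals mark a match on either strand to CACGTG (the palindromic E-box), TGACGTCA (the cAMP response element) or CAGTTG (a core of MYB sites), and SYCP1 alone has a match, a CACGTG whose first base is 11 bases before the start.
TEX101: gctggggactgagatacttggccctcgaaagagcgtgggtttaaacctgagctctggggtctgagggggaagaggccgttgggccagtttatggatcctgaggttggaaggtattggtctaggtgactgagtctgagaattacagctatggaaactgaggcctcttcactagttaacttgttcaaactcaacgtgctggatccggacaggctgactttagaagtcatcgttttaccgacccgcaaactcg
LYPD4: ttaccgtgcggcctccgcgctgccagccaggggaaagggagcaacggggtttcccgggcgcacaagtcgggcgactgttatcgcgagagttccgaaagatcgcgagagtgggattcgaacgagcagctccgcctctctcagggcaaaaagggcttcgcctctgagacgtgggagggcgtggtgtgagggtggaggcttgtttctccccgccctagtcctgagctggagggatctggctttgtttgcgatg
SYCP1: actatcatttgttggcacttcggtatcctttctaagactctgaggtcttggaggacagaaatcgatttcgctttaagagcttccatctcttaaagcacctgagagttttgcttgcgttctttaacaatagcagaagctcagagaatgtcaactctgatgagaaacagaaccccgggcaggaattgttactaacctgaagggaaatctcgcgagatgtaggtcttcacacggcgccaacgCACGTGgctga
CACGTG is found in 8.20% of 366 such regions of genes lower in spermatogonia-like than in TEX101-high cells in 7.58% of 10635 regions of tested genes and in 6.40% of all 19501 regions. For CAGTTG the shares are 10.4%, 8.11% and 8.67%, and for TGACGTCA 2.19%, 2.33% and 1.70%. In the 477 regions of genes higher in spermatogonia-like than in TEX101-high cells the shares are 7.97% for CACGTG, 6.50% for CAGTTG and 1.47% for TGACGTCA. These shares are descriptions.

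The pigs differed among themselves in several transcripts of the spermatogonia-like cells, each from 1 library, which allows no test. TDRD1 was highest in pig 1. PIWIL4 and TEX15 were highest in pig 2. SYCP3 stood at 59.2, 21.2 and 14.2 CPM, and CYP11A1, a Leydig enzyme, at 53.7, 3.30 and 9.48 CPM, both highest in pig 1. The 15 most abundant transcripts outside the ribosomal and mitochondrial genes were led by HSD11B1L (6631, 3345 and 5514 CPM) and KXD1 (5169, 4773 and 5021 CPM), and included RAN (1797, 2687 and 2064 CPM), the nuclear transport GTPase, which was higher than in gate-negative cells (log2 fold change 1.92 ± 0.25, adjusted p = 0.0017). ARRDC5, the arrestin gene that the study is about, had 0, 0 and 1 UMIs in the spermatogonia-like cells of pigs 1, 2 and 3, and 0 in the TEX101-high cells.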

How the data were processed

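Single-cell libraries (10x Genomics v2 chemistry) of 3 pig testes were used, and the 3 cattle libraries were only counted. The authors aligned the reads to Sscrofa11.1 or ARS-UCD1.2 with Cell Ranger, version 2.1.0 per the labels and 3.0.2 per the headers of the pig files, and deposited raw UMI counts per gene and barcode, without normalization; the pig files hold barcodes of at least 500 UMIs. In each species 2 libraries share a testis number, so replicate numbers are names only, and 1 library was taken as 1 animal.

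Cell minimums followed Cell Ranger 2 at 3000 expected cells. Libraries shared 20, 9 and 9 cell barcodes, none of them of gated cells in both. UMIs were summed per pig, and edgeR 4.0.16 under R 4.3.3 (quasi-likelihood, TMM, Benjamini-Hochberg at 0.05, a step tested on simulated data) took genes with at least 10 UMIs over 6 sums. The 2 sums of a pig come from the same library. Their deviations from the group means correlated at 0.39, 0.33 and 0.44 against the other cells. Against TEX101-positive cells they correlated at 0.23, 0.41 and 0.37, so the pig pairs them. The main fits leave this pairing out, and a gene that did not pass in them may pass with the replicate block. Alternatives were DESeq2 1.42.0, library sizes alone, other filters, the replicate block, each pig left out, a stricter gate, thinning, Scrublet (scanpy 1.11.5) doublets and cells with 3 Sertoli genes left out. The cells, gene lists and tests were chosen with earlier results of these data known. Genes outside the lists were named by size: the 12 highest and 8 lowest called genes against the other cells, the 10 highest and 10 lowest against TEX101 cells, each with 1 direction in 3 pigs and 50 CPM, and the 15 most abundant. Since TEX101-positive gated cells gave no calls, the rule was applied to TEX101-high cells. Results of some genes are not reported here.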

Additional observations from a re-analysis of the deposited data

Results flagged for a closer look

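Barcodes under the cell minimum were not used in the comparisons. Of these, 40 in pig 2 and 9 in pig 3 passed the gate's gene conditions, and 0 in pig 1. Among called cattle cells, which the comparisons did not use either, 49, 162 and 183 in cattle 1, 2 and 3 passed the same gene conditions, with all 8 germ genes readable. They were listed because a signal appears outside the cells compared.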

How the results depend on the processing

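Against the other cells, the counts of 502 higher and 1393 lower genes went to 923 and 2186 with DESeq2, 2031 and 3116 with the replicate block, 762 higher with library sizes alone, 0 and 0 after thinning to 2000 UMIs (1829 genes at an unadjusted p under 0.05), 23 and 714 when germ cells with 3 Sertoli genes were left out, and 2007 and 2641 against gate-negative cells. Leaving out 1 pig gave 0 to 193 higher and 134 to 782 lower. Against gate-negative cells, leaving out 1 pig gave 521 to 1606 higher and 1084 to 1927 lower. Against TEX101-positive cells, the 0 calls became 23 higher and 48 lower with the replicate block, 0 to 1 higher with 1 pig left out, and 587 and 483 when TEX101-high cells replaced them. Against TEX101-high cells, DESeq2 gave 295 higher, library sizes alone 322 higher and the block 1064 and 726, and leaving out 1 pig gave 14 to 630 higher and 52 to 551 lower. With no filter on low counts, filterByExpr, the stricter gate, doublets left out or Sertoli-gene cells as the comparison, the counts against the other cells stayed within 1.5 times. The mean share of gated cells was 2.21% of deposited barcodes, 3.95% under the stricter gate, 9.59% without the UCHL1 condition, 7.55% without doublets and 2.66% after thinning. Of the 20 genes named by size in each comparison, which were chosen for 1 direction in all 3 pigs, none changed direction in the alternatives run. Their values kept their call 206 times and lost it 74 times against the other cells (20 by thinning and 4, 19 and 19 without pigs 1, 2 and 3), 114 and 5 times against gate-negative cells, and 112 and 8 times against TEX101-high cells (all 8 without pig 3). The causes were not tested. Pig 1 is the shallowest library, and the 5 TEX101-high cells of pig 2 are assumed to vary like the other sums.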
